A study of Mus musculus with 12 samples.

Results

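A set of 10 genes of the GADD45 and p53 stress response were examined in W-20 cells, a murine bone marrow stromal cell (BMSC) line, out of 56980 genes in the count matrix. They were chosen by symbol, through their Ensembl identifiers, and all 10 of 10 were present: *Gadd45a*, *Gadd45b*, *Gadd45g*, *Trp53*, *Cdkn1a*, *Mdm2*, *Btg2*, *Ccng1*, *Phlda3* and *Sesn1*. All 10 passed the filter on low counts. Poly-A RNA was sequenced from 12 libraries, 3 in each of 4 groups. WT cells received PBS (vehicle) or 50 nM parathyroid hormone (PTH) for 2 hours, and so did Y428F cells, a stable W-20 line carrying a form of YAP, the Hippo pathway coactivator, in which a tyrosine is replaced by phenylalanine. Library totals ranged from 17127897 to 19057319 counts.

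The Y428F line limits what the comparison of lines can show. The library titles name these samples Y428F and their genotype characteristic reads WT, whereas the study's text gives the line compared with WT cells by RNA-Seq as one whose YAP carries S381A besides Y428F. Per the methods, cells of such lines were puromycin-selected positive clones carrying a plasmid for Flag-tagged YAP, and no library of cells given wild-type YAP was analysed here. The mutations, the added YAP itself, the selection and any clonal difference therefore cannot be told apart. Nothing in the labels says that the 3 libraries of a group came from separate cultures, and p-values then measure only the spread between these samples, which may be technical.

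Stromal genes were abundant in all 12 libraries, with *Col1a2* at a mean of 12830 CPM (counts scaled to library size) in vehicle-treated WT cells and 7745 CPM in vehicle-treated Y428F cells. Of 14 stromal markers, *Thy1* was at 0 in every library, and *Nt5e* and *Lepr* were near 0, at means of at most 0.0547 and 1.03 CPM. The 14 summed to 25800 to 29600 CPM in WT libraries and 15700 to 19700 CPM in Y428F libraries. Of the 12 tested, 9 were lower and 2 higher in Y428F cells in each treatment, at an adjusted p under 0.05. This share of 91.7% stands beside 45.1% of all genes with vehicle and 45.7% with PTH. Markers of other cell types were not equal between lines, and all but the adipocyte markers were scarce. The 9 hematopoietic markers summed to between 1.41 and 2.74 CPM in WT libraries and between 5.81 and 8.04 CPM in Y428F libraries, led by *Ptprc*, and 2 of the 9 were at 0 throughout. The 5 endothelial markers summed to between 0.91 and 1.77 CPM in WT libraries and to between 6.12 and 9.94 CPM in Y428F libraries, mostly *Cdh5*. Epithelial markers, mainly *Krt8*, reached at most 0.967 CPM in WT libraries and 4.79 CPM in Y428F libraries. The 5 adipocyte markers, led by *Pparg*, summed to 102 to 117 CPM in WT libraries. In Y428F libraries they summed to 54.5 to 57.6 CPM with vehicle and 80.6 to 83.7 CPM with PTH. *Pparg* read 30.4 to 33.2 CPM with vehicle and 41.8 to 50.2 CPM with PTH in WT cells. In Y428F cells it read 38.9 to 40.5 CPM and 62.1 to 67.5 CPM. These levels move with the cell line, and some of them also with PTH, *Pparg* among them. Of the 12 stromal markers tested, 2 rose and 1 fell with PTH in WT cells. In Y428F cells 2 rose and 2 fell. These shares of 25% and 33.3% stand beside 11.8% and 12.4% of all genes. Scaled by library totals alone, 1 rose and 3 fell in WT cells, and 2 rose and 4 fell in Y428F cells. The part of the marker levels in the line and PTH differences below was not tested.

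p53, the product of *Trp53*, is a transcription factor that is held low by the ubiquitin ligase MDM2 and accumulates after DNA damage. It then activates genes that stop the cell cycle, such as *Cdkn1a* (p21, an inhibitor of cyclin-dependent kinases), and its own inhibitor *Mdm2*. The GADD45 proteins are small acidic proteins that bind p21, PCNA, CDK1 and the kinase MTK1, and only *Gadd45a* of the family is a classical p53 target.

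Sequences are shown first for the members with the largest changes and for those that held a p53 element. The windows run from 250 bases before to 50 bases after the start of the canonical transcript on GRCm39. Btg2 (chr1:134006809-134007108, minus strand) and Gadd45a (chr6:67014341-67014640, minus strand) are shown because they fell furthest of the members called in both lines. Capitals mark the cAMP response element (CRE, TGACGTCA) or its half-site (TGACG), on either strand.
Btg2: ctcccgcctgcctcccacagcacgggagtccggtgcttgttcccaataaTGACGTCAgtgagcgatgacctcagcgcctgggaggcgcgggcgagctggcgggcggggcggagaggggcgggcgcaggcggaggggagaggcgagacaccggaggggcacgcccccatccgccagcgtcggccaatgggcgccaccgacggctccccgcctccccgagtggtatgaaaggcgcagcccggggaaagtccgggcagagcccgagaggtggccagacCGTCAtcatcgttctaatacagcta
Gadd45a: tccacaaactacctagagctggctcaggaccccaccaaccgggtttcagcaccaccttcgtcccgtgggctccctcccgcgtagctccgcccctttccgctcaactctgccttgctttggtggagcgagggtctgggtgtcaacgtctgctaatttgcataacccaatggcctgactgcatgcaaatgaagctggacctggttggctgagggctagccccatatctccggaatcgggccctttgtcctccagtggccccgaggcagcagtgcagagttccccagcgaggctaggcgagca

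The full CRE occurred in 1 of the 10 promoters, that of *Btg2*, at base -201, and in 2.44% of 21767 promoters of the same length. Its half-site, which overlaps the full element, occurred in 3 of 10 (*Btg2*, *Mdm2* and *Sesn1*) and in 22.6% of all promoters. GGAATG, the motif bound by TEAD factors, the DNA-binding partners of YAP, was in 1 of 10 (*Phlda3*) against 14%, and the CArG box, the site of serum response factor, was in 0 of 10 against 1.54%. Each motif was searched on both strands. A match is a description of letters in the window and not a binding site.

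The p53 element consists of 2 half-sites of 10 bases with no spacer, and it was searched within 3000 bases of each start. Both CWWG cores had to be intact, and 1 mismatch was allowed elsewhere. It was found at 2 of 10 members against 0.703% of 21767 genes. The search was repeated with 2 mismatches after the first output had been seen. The same count of members, 2 of 10, was found, against 3.56% of genes. The set was chosen as GADD45 and p53 target genes, so a share above that of all genes is not a separate result. Both elements found had 1 mismatch, and their capitals mark the 2 cores.
Cdkn1a: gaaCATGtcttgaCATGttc
Ccng1: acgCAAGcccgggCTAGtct

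The first lies at chr17:29309902-29309921, 2836 bases upstream of the canonical start of *Cdkn1a*. The second lies at chr11:40645763-40645782, in intron 1 of *Ccng1* (cyclin G1), on the minus strand. Absence of a match elsewhere says only that these letters were not in the window.

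Levels were compared between genes per kilobase of the canonical transcript. In vehicle-treated WT cells, *Gadd45a* and *Trp53* stood highest, at 60.3 ± 1.68 and 60.2 ± 2.61 CPM per kb (SD, n = 3), and their levels did not differ beyond this spread. *Gadd45g* followed at 41.6 ± 7.13, and *Gadd45b* and *Ccng1* lay within each other's spread at 25.9 ± 2.26 and 25.1 ± 0.895 CPM per kb. Next came *Phlda3* at 21.3 ± 2.12 and *Sesn1* at 19.3 ± 1.11, whose spreads overlapped. *Mdm2* was at 9.48 ± 0.706, and *Btg2* and *Cdkn1a* were lowest at 7.35 ± 0.209 and 6.56 ± 0.288 CPM per kb. In vehicle-treated Y428F cells *Trp53*, at 84.4 ± 4.70, stood above *Gadd45a* at 55.7 ± 0.997 CPM per kb.

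**Figure D1:**
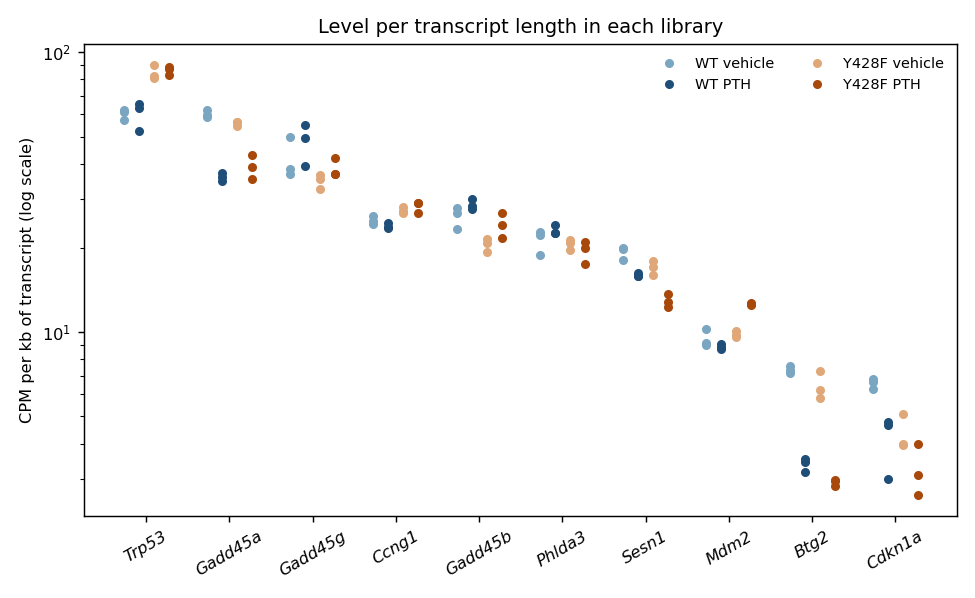
Level of each gene in CPM per kb of canonical transcript (log axis), 1 point per library, coloured by group, genes ordered by their mean over the 12 libraries. *Trp53* and *Gadd45a* lie highest and *Btg2* and *Cdkn1a* lowest.

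PTH lowered *Btg2* and *Gadd45a* in both lines and no change of *Trp53* mRNA was detectable. In WT cells 0 of the 10 members rose and 4 fell at an adjusted p under 0.05, against 6.88% of the 15583 genes tested that rose, 4.91% that fell and 11.8% called in either direction. In Y428F cells 1 rose and 3 fell, against 6.61%, 5.78% and 12.4% of 17691 genes. Scaled by library totals alone, the calls over all genes turned from 1072 higher and 765 lower to 744 and 1216 in WT cells and from 1170 and 1022 to 888 and 1445 in Y428F cells, and the members' counts stayed as given. With 1 library left out, the calls over all genes ranged from 613 to 1305 higher and from 292 to 906 lower in WT cells. In Y428F cells they ranged from 803 to 1008 higher and from 616 to 879 lower. The median log2 fold change of the members was -0.08 in WT cells and -0.02 in Y428F cells, beside -0.02 and -0.01 over all genes.

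**Figure D2:**
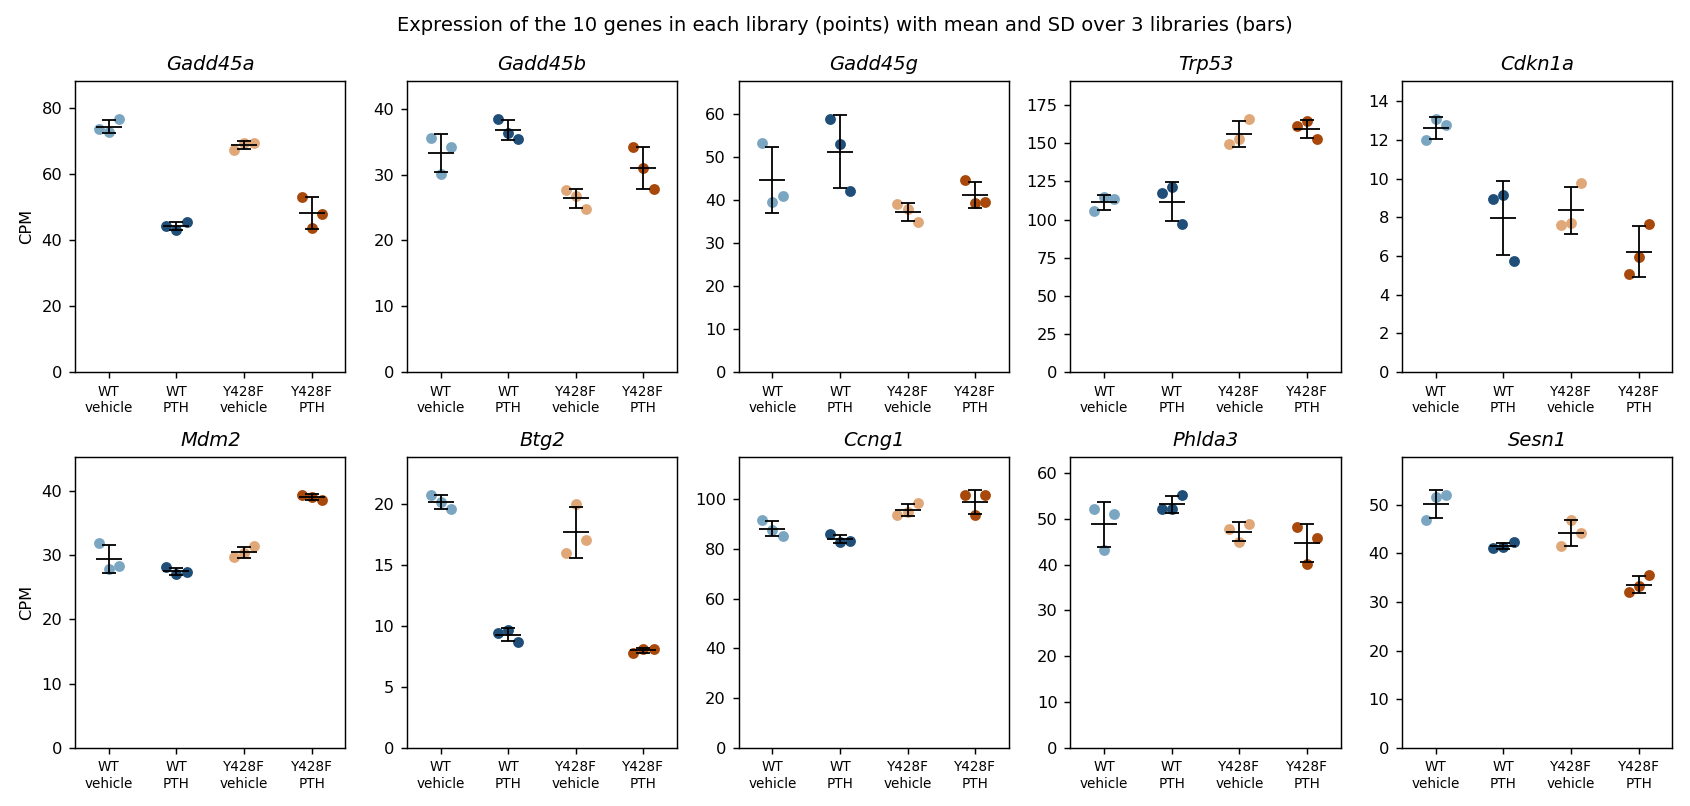
CPM of each of the 10 genes in the 4 groups, with 1 point per library and bars for the mean and SD of 3 libraries, each axis starting at 0. *Btg2* and *Gadd45a* are lower in every PTH library than in every vehicle library of the same line, and *Mdm2* is highest in the 3 PTH-treated Y428F libraries.

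*Btg2*, an antiproliferative gene of the BTG/TOB family that promotes mRNA deadenylation, showed the largest change of the 10 members in both lines. It read 20.7, 20.1 and 19.6 CPM in the vehicle-treated WT libraries and 9.43, 9.66 and 8.68 CPM with PTH. In Y428F cells it read 15.99, 19.97 and 16.98 CPM with vehicle and 7.76, 8.08 and 8.10 CPM with PTH. The treated and untreated libraries did not overlap in either line. The log2 fold change was -1.12 (SE 0.0923, adjusted p = 4.71e-06) in WT cells and -1.15 (SE 0.102, adjusted p = 2.25e-07) in Y428F cells, and the difference between the lines was -0.02 (95% interval -0.30 to 0.26).

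*Gadd45a*, the growth arrest gene of the family that is induced by DNA damage, read 73.8, 72.7 and 76.7 CPM in vehicle-treated WT cells and 44.3, 42.9 and 45.6 CPM with PTH. In Y428F cells the readings were 67.2, 69.5 and 69.3 CPM with vehicle and 53.1, 43.6 and 47.9 CPM with PTH. Again no PTH library reached a vehicle library of the same line. Its log2 fold change was -0.74 (SE 0.0684, adjusted p = 1.36e-05) in WT cells and -0.51 (SE 0.0657, adjusted p = 2.25e-05) in Y428F cells. The difference between the lines was 0.24 (SE 0.0932) and was not called (adjusted p = 0.578). With 1 library left out this difference ranged from 0.155 to 0.296. *Gadd45a* shares exonic sequence with an opposite-strand lncRNA, E230016M11Rik, and the strand setting of the counts is not given in the sources used here.

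The estimates for the other family members were above 0, and neither was called. *Gadd45b*, an NF-κB and TGF-β inducible member, read 35.6, 30.03 and 34.2 CPM with vehicle and 38.4, 36.4 and 35.5 CPM with PTH in WT cells, and 27.6, 26.8 and 24.7 against 34.2, 31.0 and 27.8 CPM in Y428F cells. The WT libraries overlapped, and those of Y428F cells did not. The log2 fold changes were 0.15 (adjusted p = 0.309) and 0.23 (adjusted p = 0.0939). *Gadd45g*, the third member, varied more between libraries, from 39.5 to 53.4 CPM with vehicle and from 42.0 to 58.8 CPM with PTH in WT cells, where the groups overlapped. In Y428F cells it read 34.8 to 38.99 CPM with vehicle and 39.35 to 44.8 CPM with PTH, with no overlap. Its log2 fold changes were 0.21 (95% interval -0.05 to 0.46) in WT cells and 0.15 (95% interval -0.08 to 0.37) in Y428F cells, and neither was called. With 1 library left out, the *Gadd45g* change in WT cells ranged from 0.11 without PTH library 1 (adjusted p = 0.742) to 0.37 without vehicle library 1, where it was called (adjusted p = 0.0448). That in Y428F cells ranged from 0.08 without PTH library 1 (adjusted p = 0.789) to 0.18 without vehicle library 1. The *Gadd45b* change in WT cells ranged from 0.085 without vehicle library 2 (adjusted p = 0.64) to 0.21 without vehicle library 1. That in Y428F cells ranged from 0.16 without PTH library 1 (adjusted p = 0.35) to 0.31 without PTH library 3, where it was called (adjusted p = 0.0427).

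*Cdkn1a* had few counts. It read 12.0, 13.1 and 12.8 CPM with vehicle and 8.96, 9.17 and 5.76 CPM with PTH in WT cells, so every PTH library lay below the vehicle libraries. In Y428F cells it read 7.61, 7.68 and 9.78 CPM with vehicle and 5.05, 5.95 and 7.66 CPM with PTH, and the groups overlapped. The log2 fold change was -0.66 (SE 0.149, adjusted p = 0.0115) in WT cells and -0.42 (SE 0.170, adjusted p = 0.118) in Y428F cells. This does not show that the lines differ: the difference was 0.24 (95% interval -0.22 to 0.70, adjusted p = 0.902). With 1 library left out it ranged from 0.05 without WT PTH library 3 to 0.365 without Y428F PTH library 1. Without WT vehicle library 3 the adjusted p in WT cells was 0.0529, and with 1 library left out the change in Y428F cells ranged from -0.29 without PTH library 1 to -0.60 without PTH library 3. It was called in the latter (adjusted p = 0.0423) and with no filter on low counts (adjusted p = 0.0334), and its adjusted p otherwise reached 0.392.

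*Sesn1*, a sestrin that restrains mTORC1, read 46.9, 51.6 and 52.1 CPM with vehicle and 41.2, 41.3 and 42.3 CPM with PTH in WT cells. In Y428F cells it read 41.6, 46.9 and 44.3 CPM and 32.1, 33.2 and 35.5 CPM. The groups did not overlap in either line. It fell by 0.26 on the log2 scale in WT cells (SE 0.0735, adjusted p = 0.0337) and by 0.40 in Y428F cells (SE 0.0697, adjusted p = 0.00062). The WT call was lost without vehicle library 2 (adjusted p = 0.107) or 3 (0.131) or PTH library 1 (0.142) or 2 (0.115). Exons of *Sesn1* overlap those of *Cep57l1* on the opposite strand.

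*Mdm2* was the 1 member that rose, in Y428F cells. There it read 29.7, 30.3 and 31.4 CPM with vehicle and 39.4, 39.1 and 38.6 CPM with PTH. The groups did not overlap, and the log2 ratio was 0.36 (SE 0.0707, adjusted p = 0.00175). In WT cells it read 31.9, 27.9 and 28.4 CPM with vehicle and 28.1, 27.0 and 27.4 CPM with PTH. These overlapped, and the log2 ratio was -0.09 (adjusted p = 0.571). The difference in response was 0.45 (SE 0.102, 95% interval 0.25 to 0.65) and narrowly missed the threshold, with an adjusted p of 0.0563. It passed in 4 alternatives: the DESeq2 Wald test (0.0179), no filter on low counts (0.0287), at least 10 counts in every library (0.0371) and the length correction (0.0438). Over all its alternatives the adjusted p reached 0.195.

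Of the difference in PTH response, 0 of 10 members were called by edgeR's quasi-likelihood test, against 0.17% of 17691 genes called higher, 0.243% lower and 0.413% in either direction. At an unadjusted p under 0.05 there were 2 members, *Gadd45a* and *Mdm2*, beside 1247 of the 17691 genes. The DESeq2 Wald test called 1 member, beside 52 genes higher and 72 lower of the 12195 it gave an adjusted p. *Trp53*, *Ccng1* and *Phlda3* (a repressor of Akt signalling) were not called with PTH in either line, with log2 fold changes between -0.07 and 0.13. For *Trp53* the interval was -0.14 to 0.16 in WT cells and -0.11 to 0.17 in Y428F cells.

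**Figure D3:**
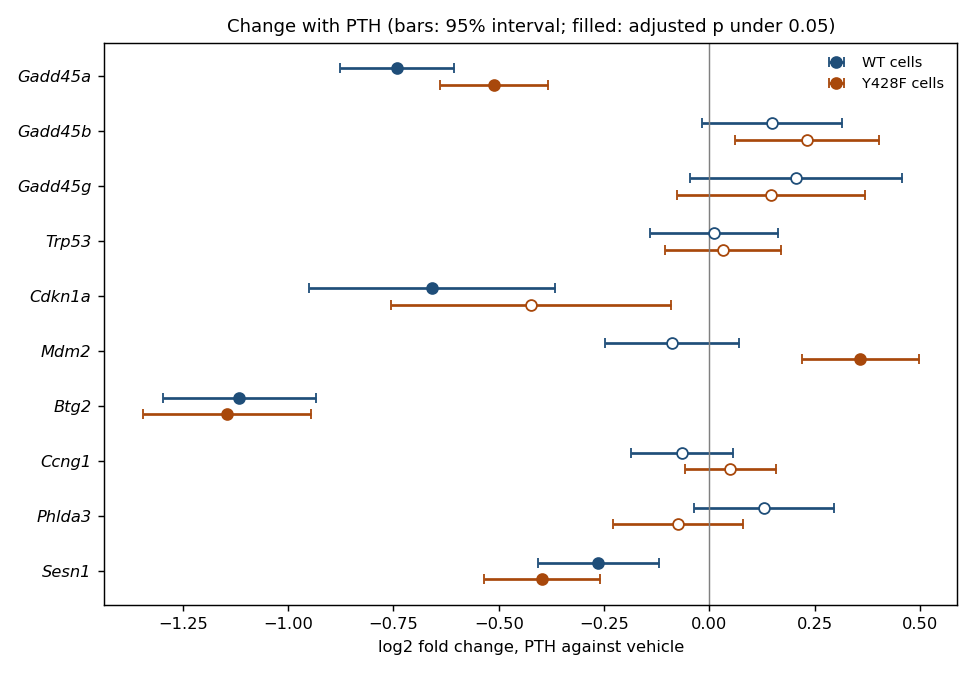
Log2 fold change of each gene with PTH against vehicle in WT and Y428F cells, with 95% intervals, filled where the adjusted p was under 0.05. *Btg2*, *Gadd45a* and *Sesn1* are filled below 0 in both lines, *Cdkn1a* in WT cells and *Mdm2*, above 0, in Y428F cells.

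Further p53 targets, a list of 40 genes apart from the members, were mostly not called with PTH. In WT cells 2 of the 36 tested rose and 4 fell, and in Y428F cells 2 of 37 rose and 6 fell. With library totals these counts were 2 and 8, and 1 and 8. The share called, 16.7% and 21.6%, stands beside the 11.8% and 12.4% of all genes, and the median log2 fold changes were -0.08 and -0.04. *Aen*, an apoptosis-enhancing nuclease, rose in WT cells by 0.70 (adjusted p = 0.000558) and in Y428F cells by 0.52 (adjusted p = 0.000351). *Ddit4*, an inhibitor of mTORC1, fell by 0.80 in WT cells and by 0.28 in Y428F cells, and its difference in response was 0.52 (SE 0.101, adjusted p = 0.0226). *Plk2*, a polo-like kinase, rose in WT cells by 0.69 (adjusted p = 0.000113), and its response differed between lines by -0.57 (adjusted p = 0.0271). *Ddit4* and *Plk2* were the 2 of 37 called in the difference, beside 0.413% of all genes. Neither was called at an adjusted p under 0.01 or without WT PTH library 2, Y428F vehicle library 2 or 3 or Y428F PTH library 3, and 1 of the list was called without WT vehicle library 3, WT PTH library 1, Y428F vehicle library 1 or Y428F PTH library 1. *Psrc1*, a spindle-associated protein, fell by 0.56 in WT cells (adjusted p = 0.00886) and by 0.52 in Y428F cells (adjusted p = 0.00157). *Ercc5*, an endonuclease of nucleotide excision repair, fell by 0.80 in Y428F cells (adjusted p = 0.000479) and was at -0.09 in WT cells, and its difference in response was not called (adjusted p = 0.177).

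Among the paralogs of the members, *Sesn2* fell by 0.48 in WT cells and by 0.69 in Y428F cells, and *Sesn3* by 0.36 and 0.45. *Trp63* fell in WT cells by 0.87 (adjusted p = 0.0341). Of the 12 paralogs tested, 0 rose and 3 fell in WT cells (25% called, against 11.8% of all genes), and 2 rose and 2 fell in Y428F cells (33.3%, against 12.4%), the risers being *Btg3* (0.40) and *Btg1* (0.29). The difference in response was called for 1 of the 12, *Btg1* (0.36, adjusted p = 0.0412), and this call was lost with a block on replicate number. Of the 5 DNA damage inducible genes tested, 4 fell in WT cells (against 4.91% of all genes that fell), *Ddit4*, *Trib3* (-0.58), *Ddit3* (-0.52) and *Ppp1r15a* (-0.44). *Chac1* was the other gene tested, and all 5 are also known from the integrated stress response. Their changes are not a reading of DNA damage, which was not measured. In Y428F cells 1 rose, *Chac1* (0.50), and 2 fell, *Trib3* (-0.50) and *Ddit4*. The difference in response was called for 2 of the 5, *Chac1* (0.575, adjusted p = 0.0355) and *Ddit4*, beside 0.413% of all genes.

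Of the GADD45 partners and stress kinases, 5 rose, 1 fell and 9 were not called of 15 tested in WT cells, and 5 rose, 1 fell and 10 were not called of 16 in Y428F cells. These shares called, 40% and 37.5%, stand beside 11.8% and 12.4% of all genes. With library totals the counts were 4 and 1 in WT cells and 5 and 2 in Y428F cells. *Map2k3*, an activator of p38, rose by 0.40 in WT and 0.50 in Y428F cells, and *Tdg*, a DNA glycosylase of active demethylation, by 0.58 and 0.30. *Map2k6*, also an activator of p38, fell by 0.67 and 0.41. *Map2k4*, an activator of JNK, rose by 0.50 in WT cells, and *Mapk8*, which encodes JNK1, by 0.28 in Y428F cells. Of 13 regulators of the GADD45 genes, 1 rose and 2 fell in WT cells and 4 rose and 2 fell in Y428F cells, 23.1% and 46.2% of the list. The balance depended on the scaling: with DESeq2 size factors 1 rose and 1 fell in WT cells, and with library totals 1 rose and 5 fell in Y428F cells. *Myc* rose in both (0.65 and 0.25), *Atf4* (-0.59) and *Zfp36* (-0.30) fell in WT cells, and in Y428F cells *Nfkbia* rose (0.33) and *Brca1* (-0.34) and *Smad3* (-0.25) fell. Of 19 p53 regulators tested, 4 rose and 1 fell in WT cells. Those that rose included *Hipk2* (0.61), *Aimp2* (0.52) and *Ppp1r13l* (0.52). The 1 that fell was *Trp63*, counted above among the paralogs too. In Y428F cells 2 rose, *Aimp2* (0.38) and *Ppp1r13l* (0.34), and 1 fell, *Trp53bp1* (-0.36). The shares called were 26.3% and 15.8%. With library totals 3 rose and 3 fell in WT cells.

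Y428F cells held more *Trp53* and less *Gadd45b* mRNA than WT cells in both treatments. With vehicle, 1 member was higher and 3 were lower, against 22.4% of 17691 genes higher, 22.7% lower and 45.1% in either direction. With PTH, 3 were higher and 4 lower, against 22.8%, 23% and 45.7%. With library totals 2 were higher and 2 lower with vehicle, and 4 higher and 1 lower with PTH. With so many genes called, 4 and 7 of 10 members lie close to or moderately above the background share. The vehicle and PTH comparisons of the lines use different libraries.

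*Trp53* read 105.9, 114.8 and 113.5 CPM in vehicle-treated WT libraries and 149.7, 152.6 and 166.0 CPM in vehicle-treated Y428F libraries. With PTH it read 117.3, 121.2 and 97.0 CPM in WT cells and 161.3, 164.4 and 153.1 CPM in Y428F cells. All 6 Y428F libraries exceeded all 6 WT libraries. The log2 differences were 0.49 (SE 0.0713, adjusted p = 8.99e-06) and 0.51 (SE 0.0715, adjusted p = 4.57e-06). *Trp53* shares exonic sequence with *Wrap53* on the opposite strand.

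*Gadd45b* was lower in Y428F cells, with log2 differences of -0.34 with vehicle (adjusted p = 0.00311) and -0.25 with PTH (adjusted p = 0.0237). The call with PTH was lost with library totals (0.0971) and without WT PTH library 1 (0.110) or 2 (0.0530) or Y428F PTH library 3 (0.117). *Cdkn1a* was lower in Y428F cells with vehicle (-0.60, adjusted p = 0.00385), and the PTH libraries overlapped (-0.35, adjusted p = 0.103). With 1 library left out, the *Cdkn1a* difference with PTH ranged from -0.23 without Y428F PTH library 1 to -0.54 without WT PTH library 3 or Y428F PTH library 3. It was called in the latter 2 (adjusted p = 0.00854 and 0.0224) and with no filter on low counts (0.0483), and its adjusted p otherwise reached 0.348. *Sesn1* was lower too, at -0.18 with vehicle (adjusted p = 0.034) and -0.31 with PTH (adjusted p = 0.00111). Its call with vehicle was lost in 10 of 16 alternatives, with adjusted p up to 0.14, among them library totals and leaving out WT vehicle library 2 (0.0881) or 3 (0.130) or Y428F vehicle library 1 (0.134) or 3 (0.0671).

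*Mdm2* did not pass the threshold with vehicle (0.05, 95% interval -0.09 to 0.19) but was higher with PTH by 0.51 (SE 0.0718, adjusted p = 5.95e-06). *Ccng1*, whose exons overlap those of *Nudcd2* on the other strand, was at 0.12 with vehicle (adjusted p = 0.0904) and higher by 0.24 with PTH (adjusted p = 0.00127). *Phlda3* (-0.25, adjusted p = 0.0141) and *Gadd45g* (-0.32, adjusted p = 0.0264) were lower with PTH, and the libraries of *Gadd45g* overlapped. With vehicle *Gadd45g* was at -0.26 (adjusted p = 0.0666), with all 3 Y428F libraries below the 3 WT libraries. It was called there in 5 alternatives, among them no filter on low counts (0.00441), the length correction (0.0148), a fit of the 6 libraries compared (0.0483) and without WT vehicle library 2 (-0.35, 0.0236). Without WT vehicle library 1 it was -0.11 (adjusted p = 0.409). The *Gadd45g* call with PTH was lost with library totals (0.0779) and without WT PTH library 1 (-0.20, 0.205) or 2 (0.0854) or Y428F PTH library 2 (0.0671) or 3 (0.0748). The *Phlda3* call was lost with library totals (0.0718) and without Y428F PTH library 2 (0.0723). *Gadd45a* and *Btg2* were not called between lines in either treatment. *Gadd45a* was at -0.115 with vehicle (adjusted p = 0.156) and 0.122 with PTH (adjusted p = 0.154). Under single alternatives *Gadd45a* was called lower with vehicle (length correction, -0.17, adjusted p = 0.0156) and higher with PTH (library totals, 0.19, adjusted p = 0.0295, and without Y428F PTH library 2, 0.18, adjusted p = 0.0404). With 1 library left out its difference with PTH went down to 0.035, and over all alternatives its adjusted p reached 0.716. *Btg2* was called lower with vehicle without Y428F vehicle library 2 (-0.29, adjusted p = 0.02), and *Ccng1* higher with vehicle with library totals (0.17, adjusted p = 0.0151) and with at least 10 counts in every library (0.13, adjusted p = 0.0442).

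**Figure D4:**
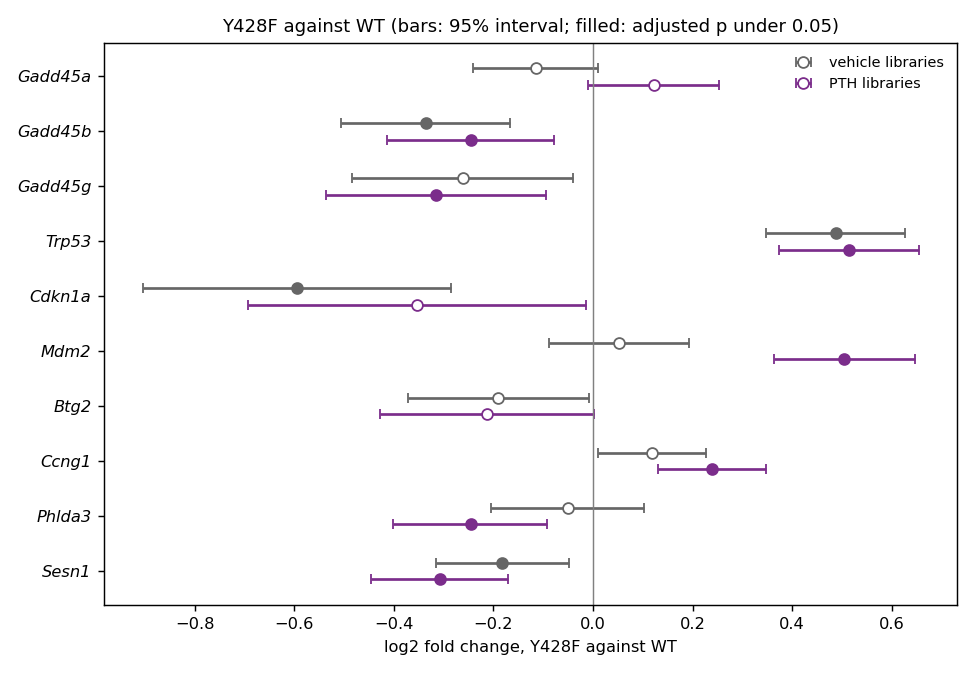
Log2 fold change of each gene in Y428F against WT cells in vehicle and PTH libraries, with 95% intervals, filled where the adjusted p was under 0.05. *Trp53* is filled above 0 in both and *Gadd45b* and *Sesn1* below 0 in both, whereas *Mdm2* is filled with PTH.

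Other p53 targets differed widely between the lines, in both directions. Of 37 tested, 19 were higher and 10 lower in Y428F cells with vehicle, and 18 higher and 12 lower with PTH, a share of 78.4% and 81.1% beside 45.1% and 45.7% of all genes, with medians of 0.40 and 0.37, beside 0.01 and 0.02. Among called genes that averaged 2 CPM or more and whose libraries did not overlap, the largest differences with vehicle were *Gtse1* (1.17), which is also a G2 and S phase gene, *Ddit4* (0.90), *Dcxr* (-0.83) and *Slc19a2* (0.77). With PTH *Ddit4* was higher by 1.42 and *Gtse1* by 1.22, *Polk*, a translesion DNA polymerase, was higher by 0.95 and *Trp53inp1*, a proapoptotic cofactor of p53, was lower (-0.90). The partners of GADD45 and stress kinases were 10 higher and 2 lower of 16 with vehicle (75%), including *Tdg* (1.62), *Mapk12* (-1.26), *Cdk1* (1.22) and *Ccnb1* (0.89), and with PTH 6 were higher and 2 lower (50%). Regulators of the GADD45 genes were 4 higher and 8 lower of 13 (92.3%), among them *Brca1* (1.45), *Egr1* (-1.25), *Smad3* (-0.57) and *Nfkb1* (-0.56), and with PTH 2 were higher and 9 lower (84.6%). The DNA damage inducible genes were 3 higher and 2 lower of 5 (100%), with *Chac1* at 1.53, and 3 higher and 0 lower with PTH (60%). Of 12 paralogs, 5 were higher and 3 lower (66.7%), including *Btg3* (0.69) and *Ccng2* (-0.67), and the counts with PTH were also 5 and 3. The p53 regulators were 7 higher and 2 lower of 19 with vehicle (47.4%, median 0.03) and 7 higher and 4 lower with PTH (57.9%, median 0.19), and 10 higher and 2 lower with PTH under library totals. *Chek2*, the checkpoint kinase, was higher by 1.00 with vehicle and 1.44 with PTH, *Aimp2* by 0.72 and 0.59 and *Atr* by 0.58 and 0.51, and *Sirt1*, a deacetylase of p53, was lower with PTH (-1.02).

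Cell cycle genes were higher in Y428F cells for 32 of 32 tested in both treatments, against 22.4% of all genes with vehicle and 22.8% with PTH, with median log2 differences of 0.88 and 1.00 and with *Aurkb* at 1.62 and *Rrm2* at 1.57 with vehicle. With PTH 0 rose and 2 fell in WT cells, *Plk1* (-0.40) and *Aurka* (-0.37), a share of 6.25% called against 11.8% of all genes, and 1 rose (*Rrm2*, 0.33) and 1 fell (*Ccnd1*, -0.22) in Y428F cells. With library totals 8 fell in WT cells, and 1 rose and 4 fell in Y428F cells. Cell cycle mRNA moves with the line, and its part in the line differences of the p53 targets was not tested. The count between lines stayed at 32 of 32 with DESeq2 size factors and with library totals.

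**Figure D5:**
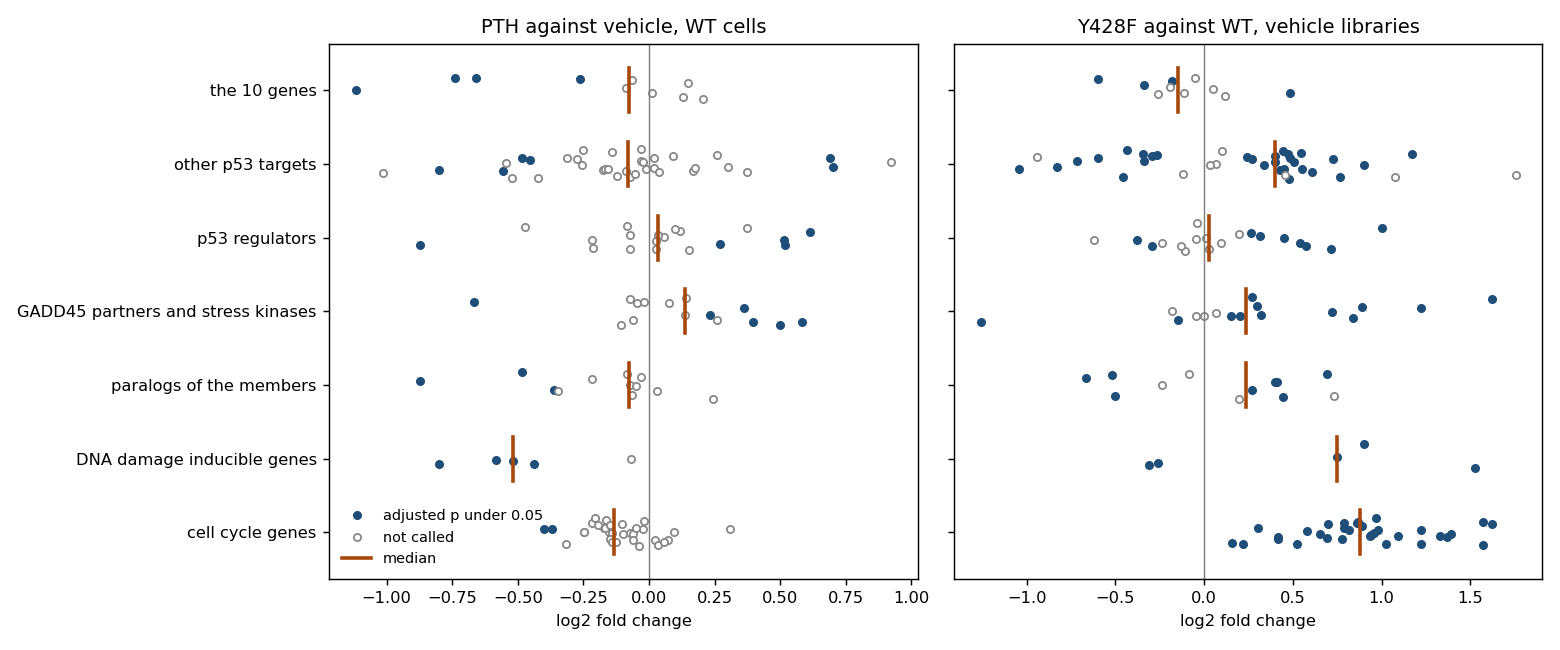
Log2 fold changes of the genes in 7 lists for PTH in WT cells (left) and for Y428F against WT with vehicle (right), 1 point per gene, filled where the adjusted p was under 0.05, with the list median as a bar. The DNA damage inducible genes, also known from the integrated stress response, lie below 0 at left. The cell cycle genes lie above 0 at right.

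The genes most alike in pattern over the 12 libraries, among 11218 genes, were *Pgpep1* (r = 0.978), *Gzf1* (0.954) and *Zkscan5* (0.953) for *Gadd45a*. For *Cdkn1a* they were *Phc1* (0.944), *Tet1* (0.933) and *Mavs* (0.927). For *Gadd45b* they were *K230015D01Rik* (0.941), *Vma21* (0.939) and *Spcs3* (0.924), and for *Gadd45g* *Styx* (0.905), *Isoc1* (0.88) and *Naa30* (0.879). These correlations are descriptions over libraries that share treatment and line. Within the family, *Gadd45b* and *Gadd45g* correlated at 0.856 over the 12 libraries and at 0.694 within groups, whereas *Gadd45a* and *Btg2* correlated at 0.934 over the libraries and at -0.179 within groups.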

How the data were processed

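Poly-A RNA-Seq of 12 libraries was used. The authors mapped reads with STAR 2.7.10b to GRCm39 (GENCODE basic) and deposited RSEM expected counts per gene, not scaled for library size. The strand setting is not given in the sources used here. The counts were rounded to integers and tested in R 4.3.3 with edgeR 4.0.16 (quasi-likelihood test, TMM normalization, total of at least 10 counts, Benjamini-Hochberg adjustment over all genes tested). PTH in WT cells was fitted on the 6 WT libraries and the other comparisons on all 12. Genes with an adjusted p under 0.05 were called. The 95% intervals are 1.96 SE, a normal approximation that can be narrower than the quasi-likelihood test implies. For *Cdkn1a* in Y428F against WT with PTH, the interval was -0.693 to -0.015 while the test's unadjusted p was 0.054. CPM used TMM factors, and positions and lengths came from GENCODE on GRCm39, with 56236 of 56980 identifiers matched. Groups came from the library titles.

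The members, gene lists, call limit and sequence motifs were chosen with earlier results of these data known. All 10 members are named. The other lists share some genes, which count in each list that holds them. *Ddit4* is both a further p53 target and a DNA damage inducible gene, and *Sesn2* both a further p53 target and a paralog. *Trp63* is both a paralog and a p53 regulator, and *Egr1* both a GADD45 regulator and an immediate early gene. Genes of the other lists were named from among the 4 called genes with the largest change in each list and comparison whose mean reached 2 CPM and whose groups' libraries did not overlap. Which of these to name was decided after their values were seen. The p53 element search was run with 1 mismatch, then again with 2 after the first output was seen, and both are reported. Alternatives were DESeq2 1.42.0, other scalings, filters and limits, a replicate block, a length correction and each library left out. The tests were tried on simulated counts. Intervals cover these libraries only.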

Additional observations from a re-analysis of the deposited data

How the results depend on the processing

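No member's call changed direction under any alternative run. Among the members' log2 fold changes in the alternatives, 801 kept their side of the threshold, 37 lost a call and 22 gained one. For PTH in WT cells 2 members were called at an adjusted p under 0.01, with or without a log2 fold change beyond 0.3, and 2 to 5 with a library left out, and 10 other p53 targets were called with library totals and with no filter on low counts, and 5 to 10 with a library left out. For Y428F against WT with PTH, 4 members were called at an adjusted p under 0.01 and 3 when a log2 fold change beyond 0.3 was also required. For the difference in PTH response 1 member, *Mdm2*, was called with the DESeq2 Wald test, no filter, at least 10 counts in every library, and the length correction. The other p53 targets called in that difference fell to 0 at both stricter limits, and were 0 to 2 with a library left out. The cause was not tested.

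*Sesn1* between lines with vehicle lost its call in 10 alternatives (adjusted p up to 0.14). Libraries with the same replicate number did not deviate together (18 pairs, mean correlation 0.0294, from -0.15 to 0.272). With the replicate block, 4 members were called for PTH in each line, 5 and 7 between lines and 0 in the difference. With the replicate block *Gadd45g* was called between lines with vehicle (adjusted p = 0.0133), and the count of paralogs called in the difference in response went from 1 (*Btg1*) to 0. *Cdkn1a* had few counts, at 5.05 to 13.1 CPM, and spread widely between the WT PTH libraries, at 7.96 ± 1.91 CPM (SD). *Btg2* in the same libraries was at 9.26 ± 0.514 CPM. The source of the *Cdkn1a* spread was not tested.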

Other observations

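Immediate early genes are known to respond quickly to hormones. Of 19 tested, 4 rose and 3 fell with PTH in WT cells, and 10 rose and 1 fell in Y428F cells, beside 6.88% and 4.91% of all genes in WT cells and 6.61% and 5.78% in Y428F cells. With library totals 3 rose and 4 fell in WT cells. In Y428F cells *Egr2* rose by 2.29, from a low level: it averaged 2.0 CPM over the Y428F libraries. Among the genes that fell in WT cells was *Nr4a2* (-0.44). *Maff* rose by 0.85 in WT and 1.60 in Y428F cells on the log2 scale, and *Nr4a1* by 0.77 and 1.04. The difference in response was itself called for 4 of the 19, against 0.413% of all genes: *Egr2* (1.89, adjusted p = 0.0289), *Ier3* (0.91, adjusted p = 0.0169), *Maff* (0.75, adjusted p = 0.00187) and *Junb* (0.69, adjusted p = 0.0215). With vehicle, *Egr2* was lower in Y428F than in WT cells (-2.52, adjusted p = 5.37e-07), at a mean of 2.30 CPM over the vehicle libraries.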
